A study of Mus musculus with 6 samples.

Results

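Solute carriers are membrane proteins that move nutrients, metabolites and ions across the plasma membrane and the membranes of organelles. Those described here are the ones with a strong signal in dendritic cells sorted from mouse spleen. They were chosen by level: a probe set was taken if its only gene symbol was Slc followed by a number and if its mean log2 intensity over all 6 arrays was 7 or more. Of 377 such probe sets, 44 passed, and they stand for 39 of 364 solute carrier genes, among 28853 probe sets on the array. RNA came from 3 populations of wild-type (WT) cells, with 2 arrays each: CD24+CD172a+ cDC2, CD24-CD172a+ cDC2 and CD24+ cDC1. Neither the strain, age and sex of the animals nor the source of the replicates is given in the sources used here, so p-values measure the spread between these arrays, which may be technical. Conventional dendritic cells of type 1 (cDC1) are known for presenting captured antigen to CD8 T cells, and those of type 2 (cDC2) carry CD172a, the product of Sirpa.

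Cells take up glucose through GLUT proteins of the SLC2 family and amino acids through families such as SLC1, SLC7 and SLC38, and mitochondria exchange metabolites with the cytosol through the SLC25 family. Other carriers work in endosomes and lysosomes, where dendritic cells break down antigen, and set pH, metal content or the export of peptides there. Dendritic cells draw more on glucose once they are activated.

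All 3 pairs of populations were compared with limma across 19938 genes, with Benjamini-Hochberg adjustment over all of them, and a gene is said to rise or fall where its adjusted p is under 0.05. Levels are log2 RMA intensities (n = 2 arrays per population), and fold changes are differences of these, given with their standard error. The array medians ran from 29.5 to 30.6 on the linear scale, and the median gap between replicates over the 39 genes was 0.18, 0.12 and 0.12 in CD24+CD172a+ cDC2, CD24-CD172a+ cDC2 and cDC1. The sorted types carried their markers: 7 of 7 cDC1 markers fell in CD24+CD172a+ cDC2 against cDC1, and 6 of 7 fell in CD24-CD172a+ cDC2 against cDC1. Of 7 cDC2 markers, 6 and 7 rose. These include Sirpa, whose product CD172a was used for the sort, so its rise is no independent check. Of all genes, 13.6% and 15.7% were called in these comparisons with cDC1, in that order. Of 13 macrophage and monocyte markers, 2 rose and 5 fell in CD24+CD172a+ cDC2, and 6 rose and 3 fell in CD24-CD172a+ cDC2, both against cDC1, and of 7 plasmacytoid markers, 4 rose and 1 fell in the first comparison, and 2 rose and 2 fell in the second. Of 6 neutrophil markers, S100a8 and S100a9 rose in CD24+CD172a+ cDC2 and Mmp8 rose in CD24-CD172a+ cDC2. Of 4 B cell markers, Ms4a1 fell by 1.52 in CD24+CD172a+ cDC2 and fell by 1.38 in CD24-CD172a+ cDC2, and Cd79b rose by 0.57 in the first. Of 3 T cell markers, Cd3d rose by 0.47 in CD24-CD172a+ cDC2, and of 5 NK cell markers none was called. The part of such cells in the results was not tested. Both comparisons against cDC1 use the same cDC1 arrays, so their values stand side by side below and are not independent of each other. In sorted bulk samples such as these, fewer cells of a kind and less RNA per cell cannot be told apart.

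Of the 39 genes, 28 had a mean of 7 or more in every population. The other 11 had a mean below 7 somewhere: Slc2a1, Slc2a3, Slc2a6, Slc44a2 and Slc14a1 in cDC1, Slc8b1, Slc25a20 and Slc9a7 in both cDC2 populations, and Slc35f6, Slc50a1 and Slc7a5 in a single cDC2 population. Genes can pass such a rule through the population where they are high, although Slc35f6 and Slc50a1 were called in no comparison. The counts below therefore describe these genes and support nothing about solute carriers as a class. At the edge of the rule, Slc9a7 (mean 7.01), Slc50a1 (7.01) and Slc2a3 (7.04) were just inside and Slc9a8 (6.998), Slc39a6 (6.98) and Slc25a39 (6.95) just outside. Of the 39 genes, 2 encode no carrier or carrier subunit: Slc9a3r1 encodes the scaffold protein NHERF1, and Slc7a6os is named for lying opposite Slc7a6.

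Against cDC1, 16 of the 39 genes were called for CD24+CD172a+ cDC2, 22 were called for CD24-CD172a+ cDC2, and 1 was called between the cDC2 populations. In CD24+CD172a+ cDC2 against cDC1, 9 of the 39 rose (23.1%), 7 fell (17.9%) and 23 were not called. Over all genes, 7.11% rose and 6.52% fell there (13.6% in all), and among the 3832 genes with a mean of 7 or more, 15% rose and 14.8% fell. In CD24-CD172a+ cDC2 against cDC1, 12 rose (30.8%), 10 fell (25.6%) and 17 were not called, with 6.83% and 8.91% of all genes (15.7% in all), and 16.2% and 20.1% of those with a mean of 7 or more. Scaling moves that last split, which was 13 and 6 after a second quantile normalisation and 14 and 5 after cyclic loess. Single arrays move it too: leaving out cDC1 replicate 1 gave 7 and 3, and replicate 2 gave 10 and 6, while leaving out CD24-CD172a+ replicate 1 gave 9 and 5, and replicate 2 gave 6 and 4. In CD24+CD172a+ against CD24-CD172a+ cDC2, none of the 39 rose, 1 fell (2.56%), namely Slc12a2, and 38 were not called by limma. Of all genes, 0.808% rose and 0.652% fell in that comparison (1.46% in all), and among those with a mean of 7 or more, 1.1% rose and 1.62% fell. At an unadjusted p under 0.05 in limma, 4 of the 39 were higher and 6 lower. Of all 19938 genes, 1573 were higher and 1226 lower at that cut, and of the 3832 genes, 484 and 306. The median fold change of the 39 genes was 0.015 in CD24+CD172a+ against CD24-CD172a+ cDC2, 0.046 in CD24+CD172a+ cDC2 against cDC1 and -0.036 in CD24-CD172a+ cDC2 against cDC1, beside -0.013, -0.026 and 0.0011 over all genes.

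**Figure D1:**
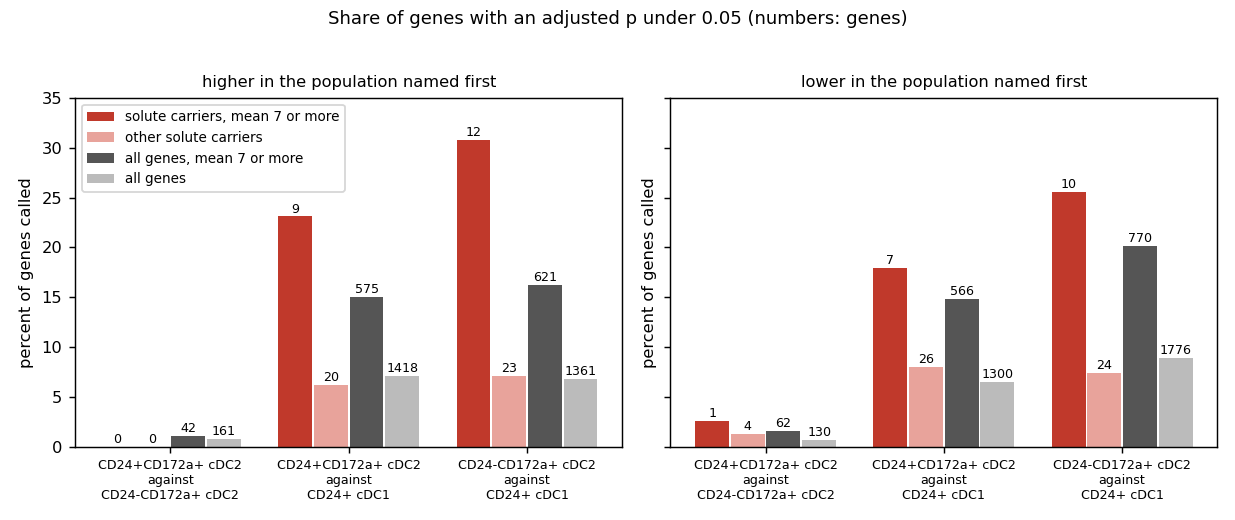
Share of genes called (percent, vertical axis; adjusted p under 0.05 in limma) in each comparison, for the 39 solute carrier genes with a mean of 7 or more, the 325 others, all 3832 genes with such a mean and all 19938 genes; the number over each bar counts genes. Against cDC1, the shares of the 39 genes stand above those of all genes, and those of all genes with a mean of 7 or more lie between them.

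**Figure D2:**
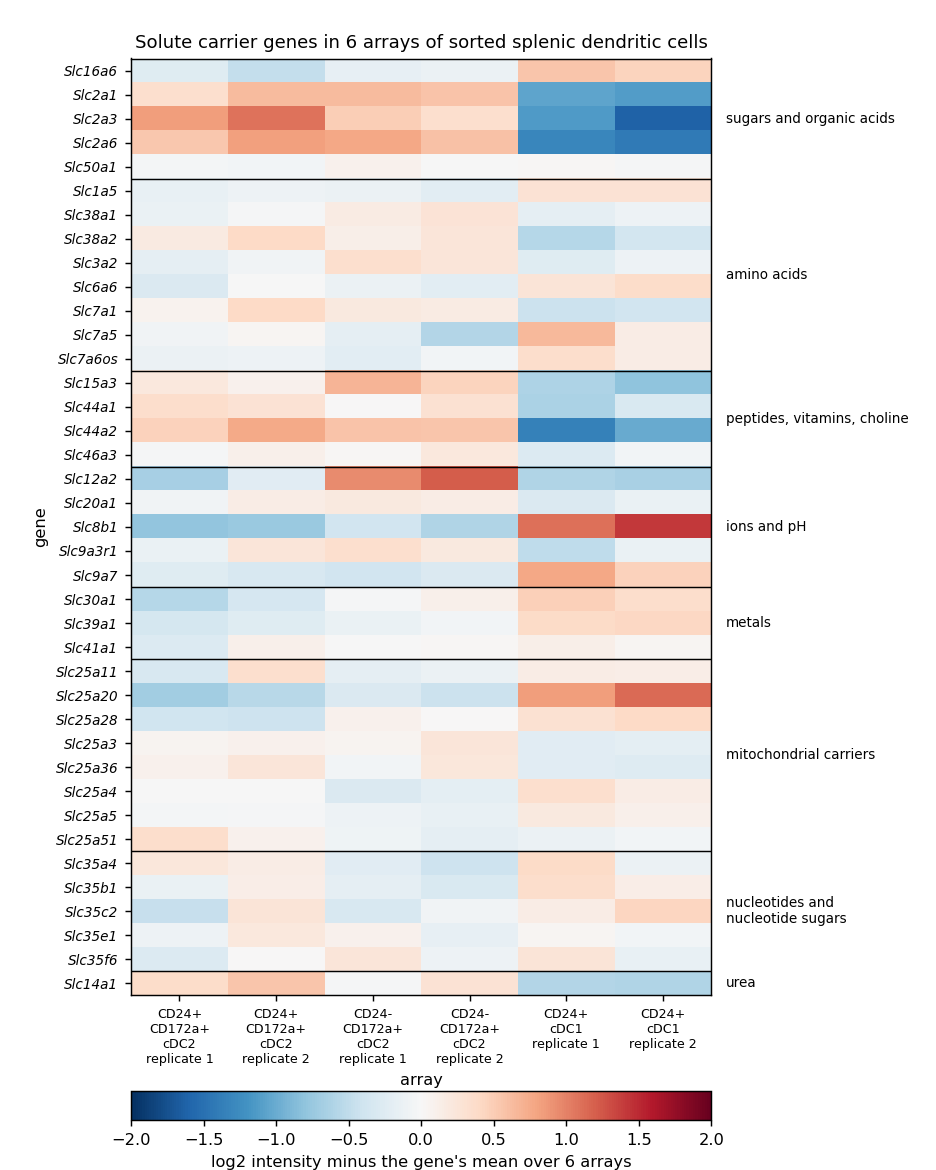
Log2 intensity of each solute carrier gene (rows, grouped by what the family carries) in each array (columns), minus that gene's mean over the 6 arrays; red is above and blue below the mean. The cDC1 arrays are blue for Slc2a1, Slc2a3, Slc2a6 and Slc44a2 and red for Slc8b1 and Slc25a20, and Slc12a2 is red in the CD24-CD172a+ arrays.

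All 3 glucose transporter genes of the set were higher in both cDC2 populations than in cDC1, by about 3- to 5-fold, and all 3 passed the level rule with a mean below 7 in cDC1. Slc2a1 encodes GLUT1, the widespread transporter of basal glucose uptake, Slc2a3 encodes the high-affinity GLUT3, and Slc2a6 encodes GLUT6, found on lysosomes of mouse macrophages. Slc2a3 read 7.88 and 8.13 in CD24+CD172a+ cells, 7.53 and 7.39 in CD24-CD172a+ cells, and 5.91 and 5.43 in cDC1. Slc2a6 read 7.76 and 8.04 in CD24+CD172a+ cells, 7.99 and 7.82 in CD24-CD172a+ cells, and 5.93 and 5.82 in cDC1. For Slc2a1 the arrays gave 8.12 and 8.43 in CD24+CD172a+ cells, 8.42 and 8.35 in CD24-CD172a+ cells, and 6.74 and 6.67 in cDC1. Every cDC2 array lay above every cDC1 array for the 3 genes, and for Slc2a1 and Slc2a6 the cDC2 populations overlapped. Against cDC1, Slc2a3 rose by 2.33 ± 0.17 in CD24+CD172a+ cDC2 (5.04-fold, adjusted p = 5.91e-06 in limma) and by 1.79 ± 0.17 in CD24-CD172a+ cDC2 (3.46-fold, adjusted p = 4.48e-05). Slc2a6 rose by 2.03 ± 0.14 in each (4.09-fold and 4.10-fold, adjusted p = 4.39e-06 and 4.14e-06). Slc2a1 rose by 1.57 ± 0.14 and 1.68 ± 0.14 (2.97-fold and 3.21-fold, adjusted p = 2.48e-05 and 1.55e-05). All of these calls held without any single array. In CD24+CD172a+ against CD24-CD172a+ cDC2, Slc2a3 differed by 0.54 ± 0.17 (adjusted p = 0.178), Slc2a1 by -0.11 ± 0.14 (adjusted p = 0.780) and Slc2a6 by -0.0023 ± 0.14 (adjusted p = 0.998).

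Of the remaining pair in this class, Slc16a6 fell and Slc50a1 was not called. Slc16a6, of the monocarboxylate transporter family, read 8.72 and 8.50 in CD24+CD172a+ cells, 8.80 and 8.85 in CD24-CD172a+ cells, and 9.52 and 9.41 in cDC1. Both cDC1 arrays lay above all 4 cDC2 arrays. It fell by 0.86 ± 0.13 in CD24+CD172a+ cDC2 and by 0.64 ± 0.13 in CD24-CD172a+ cDC2 (adjusted p = 0.00139 and 0.00796 in limma), and the second call ended without cDC1 replicate 1 (adjusted p = 0.0682). Slc50a1, a sugar carrier of the SWEET family, lay between 6.96 and 7.10 on all 6 arrays and was not called. Of the 48 dimmer sugar and organic acid carriers, 3 rose and 1 fell in each comparison with cDC1, where 7.11% and 6.83% of all genes rose and 6.52% and 8.91% fell. Among fixed partner genes, Emb encodes embigin, a chaperone of monocarboxylate transporters, and read 8.95 and 8.90 in CD24+CD172a+ cells, 8.96 and 9.13 in CD24-CD172a+ cells, and 6.42 and 5.41 in cDC1. It rose by 3.01 ± 0.26 and 3.13 ± 0.26 against cDC1 (adjusted p = 1.63e-05 and 1.26e-05). Most called partner genes went the other way: of 19 measured, 6 fell and 3 rose in CD24+CD172a+ cDC2, and 7 fell and 3 rose in CD24-CD172a+ cDC2.

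**Figure D3:**
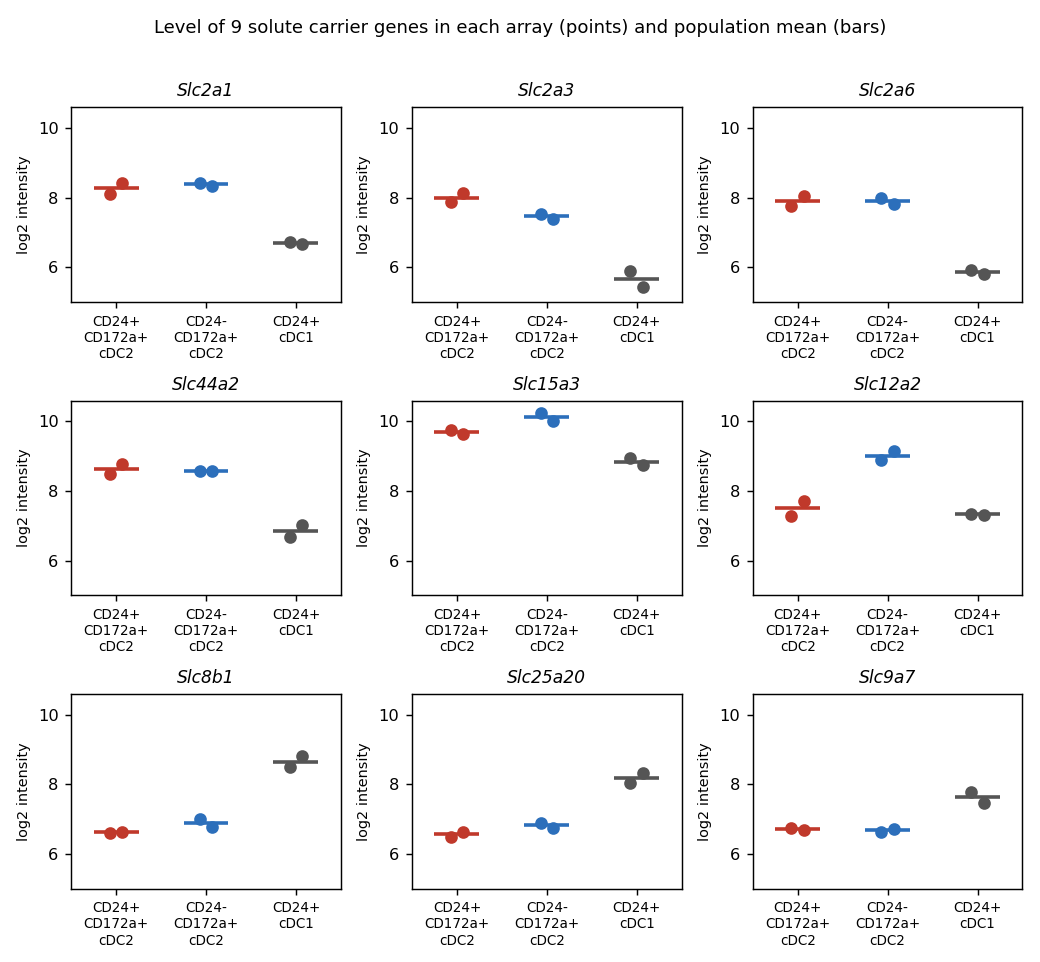
Log2 intensity (vertical axis) of 9 solute carrier genes in the 3 populations (horizontal axis); each point is 1 array and each bar the mean of 2. The cDC1 arrays are lowest for Slc2a1, Slc2a3, Slc2a6, Slc44a2 and Slc15a3 and highest for Slc8b1, Slc25a20 and Slc9a7, whereas Slc12a2 is highest in CD24-CD172a+ cDC2.

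To show the sequence before genes at both ends of the range, the 250 bases before the start site are given for 2 that rose in both cDC2 populations (Slc2a1 and Slc2a6) and 2 that fell in both (Slc25a20 and Slc9a7). They are RefSeq windows on GRCm38.p6: chr4:119108495-119108744 on the plus strand for Slc2a1, chr2:27027999-27028248 on the minus strand for Slc2a6, chr9:108661886-108662135 on the plus strand for Slc25a20 and chrX:20291828-20292077 on the minus strand for Slc9a7. Capitals mark matches, on either strand, to the GC box GGGCGG or the ETS motif CCGGAAGT.
Slc2a1: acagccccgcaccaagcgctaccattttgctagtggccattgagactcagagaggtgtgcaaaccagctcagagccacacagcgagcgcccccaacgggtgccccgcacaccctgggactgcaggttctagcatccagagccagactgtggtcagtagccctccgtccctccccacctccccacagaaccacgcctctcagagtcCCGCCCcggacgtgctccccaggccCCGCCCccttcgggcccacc
Slc2a6: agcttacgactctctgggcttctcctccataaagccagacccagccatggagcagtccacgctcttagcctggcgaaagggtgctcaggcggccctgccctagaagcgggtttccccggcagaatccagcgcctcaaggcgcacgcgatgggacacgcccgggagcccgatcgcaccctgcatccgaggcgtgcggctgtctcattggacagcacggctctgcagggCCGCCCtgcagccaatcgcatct
Slc25a20: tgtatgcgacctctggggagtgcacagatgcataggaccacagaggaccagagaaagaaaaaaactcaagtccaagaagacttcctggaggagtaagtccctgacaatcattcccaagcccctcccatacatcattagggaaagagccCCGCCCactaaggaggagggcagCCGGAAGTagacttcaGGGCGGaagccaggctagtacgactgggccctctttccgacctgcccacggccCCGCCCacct
Slc9a7: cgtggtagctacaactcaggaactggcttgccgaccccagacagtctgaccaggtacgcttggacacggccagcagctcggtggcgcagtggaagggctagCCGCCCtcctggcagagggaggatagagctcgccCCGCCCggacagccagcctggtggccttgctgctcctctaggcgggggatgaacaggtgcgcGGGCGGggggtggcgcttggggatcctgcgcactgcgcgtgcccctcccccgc
The windows held 2, 1, 3 and 3 GC boxes in that order, and that of Slc25a20 also held the ETS motif. Of 39 genes, 27 had a window in the table, and 24 of these 27 held a GC box, against 32.9% of 27025 genes. The windows of the 27 had a median GC content of 64.4%, against 52% for all. Among those that rose in either cDC2 population against cDC1, 8 of 8 held a GC box, and among those that fell, 5 of 7. The ETS motif was in 2 of the 27 (2.93% of all), the E-box CACGTG in 2 (6.05% of all) and an interferon response core, GAAA repeated with 2 bases between, in 0 (3.04% of all). Matches to different motifs overlapped in 0 places of the 4 printed windows. A match is a stretch of letters and no evidence of binding. The 27 genes were chosen for a strong signal and the 27025 were not. The GC box and GC content shares of other genes with a strong signal were not computed.

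The amino acid class holds 8 genes, of which Slc7a6os encodes no carrier or carrier subunit and was not called. Of the 8, 2 rose and 0 fell in CD24+CD172a+ cDC2 against cDC1, and 3 rose and 3 fell in CD24-CD172a+ cDC2 against cDC1, beside the 13.6% and 15.7% of all genes called there. Of the 58 dimmer genes of this class, 3 rose and 5 fell in the first comparison, and 4 rose and 4 fell in the second. Slc38a2 encodes SNAT2, which takes up small neutral amino acids with sodium. It read 9.02 and 9.23 in CD24+CD172a+ cells, 8.94 and 9.07 in CD24-CD172a+ cells, and 8.26 and 8.45 in cDC1. It rose by 0.77 ± 0.14 in CD24+CD172a+ cDC2 (adjusted p = 0.00385 in limma) and by 0.65 ± 0.14 in CD24-CD172a+ cDC2 (adjusted p = 0.00967). The second call ended without cDC1 replicate 1 or CD24-CD172a+ replicate 2 (adjusted p = 0.0909 and 0.0584). Slc7a1 encodes CAT1, a carrier of cationic amino acids such as arginine. It read 7.72 and 8.05 in CD24+CD172a+ cells, 7.85 and 7.82 in CD24-CD172a+ cells, and 7.22 and 7.27 in cDC1, with no overlap between either cDC2 population and cDC1. It rose by 0.64 ± 0.14 and 0.59 ± 0.14 (adjusted p = 0.0124 and 0.0171). The first of these calls held only without CD24+CD172a+ replicate 1 among the fits that leave out a compared array: it ended without either cDC1 replicate or CD24+CD172a+ replicate 2 (0.61, 0.66 and 0.47, adjusted p = 0.0798, 0.0559 and 0.114). The second ended without any 1 of the 4 compared arrays (adjusted p from 0.0594 to 0.102).

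The amino acid exchanger of lymphocytes and myeloid cells known as CD98 pairs the heavy chain encoded by Slc3a2 with a light chain such as LAT1, encoded by Slc7a5. Slc3a2 read 10.19 and 10.31 in CD24+CD172a+ cells, 10.71 and 10.62 in CD24-CD172a+ cells, and 10.14 and 10.27 in cDC1. Slc7a5 read 7.06 and 7.18 in CD24+CD172a+ cells, 6.97 and 6.55 in CD24-CD172a+ cells, and 7.79 and 7.29 in cDC1. It passed the level rule with a mean below 7 in CD24-CD172a+ cDC2. In CD24-CD172a+ cDC2 against cDC1 the heavy chain gene thus rose, by 0.46 ± 0.13 (adjusted p = 0.0357 in limma), and the light chain gene fell, by 0.78 ± 0.19 (adjusted p = 0.0172). The Slc3a2 call ended in every fit that leaves out 1 of the 6 arrays (adjusted p from 0.0530 to 0.213). The Slc7a5 call ended without cDC1 replicate 1 (-0.54, adjusted p = 0.157) or CD24-CD172a+ replicate 2 (-0.58, adjusted p = 0.119). Of the CD98 pair, between the cDC2 populations, Slc3a2 differed by -0.41 ± 0.13 (adjusted p = 0.170) and Slc7a5 by 0.36 ± 0.19 (adjusted p = 0.428). In CD24+CD172a+ cDC2 against cDC1, they differed by 0.05 ± 0.13 and -0.42 ± 0.19 (adjusted p = 0.891 and 0.212).

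Slc1a5, which encodes the glutamine carrier ASCT2, and Slc6a6, which encodes the taurine carrier, fell in CD24-CD172a+ cDC2 against cDC1. Slc1a5 read 8.54 and 8.58 in CD24+CD172a+ cells, 8.55 and 8.47 in CD24-CD172a+ cells, and 8.97 on both cDC1 arrays. Slc6a6 read 8.23 and 8.51 in CD24+CD172a+ cells, 8.40 and 8.32 in CD24-CD172a+ cells, and 8.78 and 8.89 in cDC1. Neither gene's cDC1 arrays overlapped with those of cDC2. In CD24-CD172a+ cDC2 they fell by 0.45 ± 0.12 and 0.47 ± 0.14 (adjusted p = 0.0305 and 0.0448 in limma), calls that ended without any 1 of the 4 compared arrays (adjusted p from 0.0688 to 0.205 over both). They also ended after a second quantile normalisation and after cyclic loess (adjusted p from 0.0591 to 0.0962 over both). In CD24+CD172a+ cDC2 they differed by -0.41 ± 0.12 and -0.46 ± 0.14 (adjusted p = 0.0536 and 0.0569), and both became calls with genes below the median left out, with a trend and robust variance, and with array weights (adjusted p from 0.0165 to 0.0473 over both). Slc38a1, a relative of Slc38a2, has 2 probe sets that pass the rule and disagree: against cDC1, CD24-CD172a+ cDC2 differed by 0.37 in the brighter and by -0.40 in the dimmer (adjusted p = 0.0815 and 0.0733 with all probe sets fitted). Of 17 measured genes of a fixed list on the response to amino acid shortage, which includes Atf4 and several of its targets, 2 rose and 1 fell in CD24+CD172a+ cDC2 against cDC1 (13.6% of all genes were called there), 5 rose and 2 fell in CD24-CD172a+ cDC2 against cDC1 (15.7% of all genes), and none was called between the cDC2 populations. Their median fold change was 0.035 and 0.057 against cDC1. In CD24+CD172a+ cDC2 against cDC1, Nupr1 rose by 0.88 and Ddit4 by 0.59, and Chac1 fell by 0.47 (adjusted p = 0.00852, 0.0247 and 0.0385). Among those called in CD24-CD172a+ cDC2, Nupr1 rose by 0.90 and Sesn2 by 0.86 (adjusted p = 0.00691 and 0.00701). Gars fell there by 0.88 (adjusted p = 0.0023).

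Of 4 genes for carriers of choline, peptides and vitamins, 3 rose in each comparison with cDC1 (Slc44a2, Slc44a1 and Slc15a3) and none fell. Of all genes, 7.11% and 6.83% rose there, and 6.52% and 8.91% fell. Of the 3 genes, Slc44a2 passed the level rule with a mean below 7 in cDC1. Of the 16 dimmer genes of this class, 2 rose and none fell in each comparison with cDC1. Slc44a2 encodes a choline transporter-like protein. It read 8.49 and 8.78 in CD24+CD172a+ cells, 8.58 and 8.58 in CD24-CD172a+ cells, and 6.68 and 7.01 in cDC1. It rose by 1.79 ± 0.16 and 1.74 ± 0.16 against cDC1 (3.46-fold and 3.33-fold, adjusted p = 2.13e-05 and 2.75e-05 in limma). Its relative Slc44a1, which encodes the choline transporter CTL1, read 9.13 and 9.06 in CD24+CD172a+ cells, 8.78 and 9.08 in CD24-CD172a+ cells, and 8.14 and 8.47 in cDC1. It rose by 0.79 ± 0.16 and 0.63 ± 0.16 (adjusted p = 0.00626 and 0.0205). Its second probe set gave 0.94 and 0.70 (adjusted p = 0.0021 and 0.00997 with all probe sets fitted). The call in CD24+CD172a+ cDC2 ended without cDC1 replicate 1 or CD24+CD172a+ replicate 1 (adjusted p = 0.0685 and 0.0578), and that in CD24-CD172a+ cDC2 without cDC1 replicate 1 or CD24-CD172a+ replicate 2 (adjusted p = 0.178 and 0.127).

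Slc15a3 encodes a lysosomal carrier of histidine and small peptides, among them bacterial muropeptides that NOD receptors sense. It read 9.76 and 9.63 in CD24+CD172a+ cells, 10.23 and 10.004 in CD24-CD172a+ cells, and 8.94 and 8.75 in cDC1. The 3 populations did not overlap, with CD24-CD172a+ cDC2 highest and cDC1 lowest. Slc15a3 rose by 0.85 ± 0.14 in CD24+CD172a+ cDC2 (adjusted p = 0.00201 in limma) and by 1.27 ± 0.14 in CD24-CD172a+ cDC2 (adjusted p = 0.000123), and both calls held without any single array. It differed between the cDC2 populations by -0.42 ± 0.14 (adjusted p = 0.203). Slc46a3, a lysosomal carrier of the folate transporter family, lay between 7.79 and 8.28 on all 6 arrays and was not called.

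The ion carrier Slc12a2 held the widest gap of the 39 genes between the cDC2 populations. It encodes NKCC1, which brings sodium, potassium and chloride into the cell together and takes part in the control of cell volume. It read 7.28 and 7.72 in CD24+CD172a+ cells, 8.89 and 9.15 in CD24-CD172a+ cells, and 7.35 and 7.30 in cDC1. Both CD24-CD172a+ arrays lay above the other 4, while CD24+CD172a+ cDC2 and cDC1 overlapped. Slc12a2 fell by 1.52 ± 0.17 in CD24+CD172a+ against CD24-CD172a+ cDC2 (2.87-fold, adjusted p = 0.00321 in limma), and without CD24+CD172a+ replicate 1 the difference was -1.30 and no longer called (adjusted p = 0.0506). Against cDC1 it rose by 1.69 ± 0.17 in CD24-CD172a+ cDC2 (3.24-fold, adjusted p = 5.17e-05) and differed by 0.17 ± 0.17 in CD24+CD172a+ cDC2 (adjusted p = 0.629). Macrophage and monocyte markers also differed between the cDC2 populations: 7 of 13 measured fell in CD24+CD172a+ cDC2 and none rose. Of all genes, 0.652% fell and 0.808% rose there. The summed intensity of the 13 markers was 4244 and 4785 in CD24+CD172a+ cells, 6658 and 6806 in CD24-CD172a+ cells, and 6695 and 6589 in cDC1. Plasmacytoid markers ran the other way, with 4 of 7 risen in CD24+CD172a+ cDC2 and sums of 788 and 747 in CD24+CD172a+ cDC2, against 470.0 and 469.6 in CD24-CD172a+ cDC2. Of 6 neutrophil markers, 2 rose there (S100a8 and S100a9), with sums of 220.7 and 190.6 in CD24+CD172a+ cDC2, against 84.3 and 91.8 in CD24-CD172a+ cDC2. The part of such cells in the Slc12a2 difference was not tested.

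2 ion exchangers of organelles were higher in cDC1, and both passed the level rule with a mean below 7 in both cDC2 populations. Slc8b1 encodes NCLX, the sodium-calcium exchanger of the inner mitochondrial membrane. It read 6.60 and 6.64 in CD24+CD172a+ cells, 7.002 and 6.79 in CD24-CD172a+ cells, and 8.49 and 8.81 in cDC1. It fell by 2.03 ± 0.15 in CD24+CD172a+ cDC2 (4.08-fold, adjusted p = 5.51e-06 in limma) and fell by 1.75 ± 0.15 in CD24-CD172a+ cDC2 (3.37-fold, adjusted p = 1.69e-05). Slc9a7 encodes NHE7, a sodium-proton exchanger of the trans-Golgi network. It read 6.76 and 6.69 in CD24+CD172a+ cells, 6.62 and 6.73 in CD24-CD172a+ cells, and 7.79 and 7.46 in cDC1. It fell by 0.90 ± 0.14 and 0.95 ± 0.14 (adjusted p = 0.0016 and 0.00107). The calls of both genes held without any single array, and in both the cDC2 arrays lay below those of cDC1. Of the 50 dimmer genes of the ion class, 5 rose and 5 fell against cDC1 in CD24+CD172a+ cDC2, and 5 rose and 3 fell in CD24-CD172a+ cDC2. Of all genes, 13.6% and 15.7% were called there. Slc20a1, which encodes the phosphate carrier PiT1, lay between 7.65 and 8.14 and was not called. Its difference of 0.39 ± 0.14 in CD24-CD172a+ cDC2 against cDC1 (adjusted p = 0.0861) became a call with genes below the median left out, after cyclic loess, and with a trend and robust variance (adjusted p = 0.0431, 0.0357 and 0.0468). Slc9a3r1 read 7.51 and 7.89 in CD24+CD172a+ cells, 7.98 and 7.85 in CD24-CD172a+ cells, and 7.15 and 7.51 in cDC1. It rose by 0.59 ± 0.17 in CD24-CD172a+ cDC2 (adjusted p = 0.0410), a call that ended without cDC1 replicate 1 (0.40, adjusted p = 0.294) or either CD24-CD172a+ replicate (adjusted p = 0.174 and 0.0828).

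Both zinc carriers of the set were lower in CD24+CD172a+ cDC2 than in cDC1. Slc30a1 encodes ZnT1, which exports zinc from the cytosol, and Slc39a1 encodes ZIP1, which imports it. Slc30a1 read 7.07 and 7.30 in CD24+CD172a+ cells, 7.61 and 7.75 in CD24-CD172a+ cells, and 8.11 and 7.99 in cDC1, with no overlap between populations. Slc39a1 read 8.10 and 8.21 in CD24+CD172a+ cells, 8.32 and 8.41 in CD24-CD172a+ cells, and 8.84 and 8.87 in cDC1, in the same order and again without overlap. Slc30a1 fell by 0.86 ± 0.14 in CD24+CD172a+ cDC2 against cDC1 (adjusted p = 0.0016 in limma) and differed by -0.37 ± 0.14 in CD24-CD172a+ cDC2 (adjusted p = 0.105). Slc39a1 fell by 0.70 ± 0.13 in CD24+CD172a+ cDC2 (adjusted p = 0.00351). It also fell by 0.49 ± 0.13 in CD24-CD172a+ cDC2 (adjusted p = 0.0233), a call that ended without any 1 of the 4 compared arrays (adjusted p from 0.0532 to 0.112), after cyclic loess (adjusted p = 0.0517) and when its dim second probe set was averaged in (adjusted p = 0.110). From one cDC2 population to the other, Slc30a1 differed by -0.49 ± 0.14 (adjusted p = 0.136) and Slc39a1 by -0.21 ± 0.13 (adjusted p = 0.507). The magnesium carrier gene Slc41a1 lay between 8.38 and 8.77 and was not called. Of the 28 dimmer metal carriers, none rose, 4 fell in CD24+CD172a+ cDC2 against cDC1 and 3 fell in CD24-CD172a+ cDC2 against cDC1, where 6.52% and 8.91% of all genes fell.

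Of 8 genes for mitochondrial carriers of the SLC25 family, none rose against cDC1 in either cDC2 population and 2 fell in each, beside 7.11% and 6.83% of all genes that rose there and 6.52% and 8.91% that fell. Of the 38 dimmer genes of this class, 2 rose in each comparison, while 4 fell in CD24+CD172a+ cDC2 and 7 did so in CD24-CD172a+ cDC2. Slc25a20 encodes the carnitine-acylcarnitine carrier, which brings fatty acids into mitochondria for oxidation. It read 6.49 and 6.64 in CD24+CD172a+ cells, 6.90 and 6.76 in CD24-CD172a+ cells, and 8.03 and 8.32 in cDC1. Every cDC2 array lay below both cDC1 arrays, and the gene passed the level rule with a mean below 7 in both cDC2 populations. It fell by 1.61 ± 0.14 in CD24+CD172a+ cDC2 (3.05-fold, adjusted p = 2.5e-05 in limma) and fell by 1.35 ± 0.14 in CD24-CD172a+ cDC2 (2.55-fold, adjusted p = 9.85e-05), and both calls held without any single array. Slc25a28 encodes mitoferrin 2, which carries iron into mitochondria. It read 7.54 and 7.53 in CD24+CD172a+ cells, 8.03 and 7.95 in CD24-CD172a+ cells, and 8.24 and 8.34 in cDC1. It fell by 0.75 ± 0.13 in CD24+CD172a+ cDC2 (adjusted p = 0.00204) and differed by -0.30 ± 0.13 in CD24-CD172a+ cDC2 (adjusted p = 0.155). It differed between the cDC2 populations by -0.45 ± 0.13 (adjusted p = 0.126).

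Slc25a4 and Slc25a5 encode ANT1 and ANT2, which exchange ADP for ATP across the inner membrane. Slc25a4 read 9.28 on both CD24+CD172a+ arrays, 9.002 and 9.09 in CD24-CD172a+ cDC2, and 9.62 and 9.44 in cDC1. It fell by 0.48 ± 0.13 in CD24-CD172a+ cDC2 against cDC1 (adjusted p = 0.0287 in limma), a call that ended without any 1 of the 4 compared arrays (adjusted p from 0.0516 to 0.206), and after a second quantile normalisation or cyclic loess (adjusted p = 0.0558 and 0.0518). In CD24+CD172a+ cDC2 it differed by -0.25 ± 0.13 (adjusted p = 0.282). The 3 probe sets of Slc25a5 all passed the rule. With all probe sets fitted, they differed by -0.17, -0.27 and -0.19 in CD24+CD172a+ cDC2 and by -0.27, -0.40 and -0.31 in CD24-CD172a+ cDC2 against cDC1, and none was called (smallest adjusted p = 0.0576). The reference gene table lists pseudogenes of Slc25a5 on other chromosomes, and which copy each probe set reads was not examined. The carriers encoded by Slc25a3 (phosphate), Slc25a11 (oxoglutarate), Slc25a36 (pyrimidine nucleotides) and Slc25a51 (NAD) were called in no comparison. A second probe set of Slc25a36 rose by 0.45 in CD24+CD172a+ cDC2 against cDC1 with all probe sets fitted (adjusted p = 0.0423).

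The SLC35 family carries nucleotide sugars and related molecules into the endoplasmic reticulum and the Golgi. Of its 5 genes, 1 was called, namely Slc35b1, which encodes a carrier of the endoplasmic reticulum that exchanges ATP for ADP. It read 8.80 and 9.06 in CD24+CD172a+ cells, 8.74 and 8.62 in CD24-CD172a+ cells, and 9.29 and 9.06 in cDC1. It fell by 0.50 ± 0.15 in CD24-CD172a+ cDC2 against cDC1 (adjusted p = 0.0433 in limma), where 8.91% of all genes fell and 15.7% were called. That call ended in every fit that leaves out 1 of the 6 arrays (adjusted p from 0.0509 to 0.271), with only the compared groups fitted (adjusted p = 0.0509), and after a second quantile normalisation or cyclic loess (adjusted p = 0.082 and 0.0776). Slc35a4, Slc35c2, Slc35e1 and Slc35f6 were called in no comparison with all 6 arrays. Slc35c2 had the widest replicate gap of the 39 genes in CD24+CD172a+ cDC2 (0.72). In cDC1 the widest was that of Slc35a4 (0.51). With a compared array left out, Slc35a4 lay between -0.71 and -0.20 in CD24-CD172a+ cDC2 against cDC1. Slc35c2 then lay between -0.76 and -0.034 in CD24+CD172a+ cDC2 against cDC1, and each became a call in such a fit. Of the 31 dimmer nucleoside and nucleotide sugar carriers, 3 rose and 2 fell against cDC1 in CD24+CD172a+ cDC2, and 2 rose and 2 fell in CD24-CD172a+ cDC2. Of all genes, 13.6% and 15.7% were called there.

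Slc14a1 encodes the urea channel UT-B, known from red cells and the kidney. It read 7.88 and 8.06 in CD24+CD172a+ cells, 7.48 and 7.80 in CD24-CD172a+ cells, and 6.93 and 6.92 in cDC1. Both cDC2 populations lay above cDC1, and the gene passed the level rule with a mean below 7 in cDC1. It rose by 1.05 ± 0.15 in CD24+CD172a+ cDC2 (2.07-fold, adjusted p = 0.000608 in limma) and by 0.72 ± 0.15 in CD24-CD172a+ cDC2 (adjusted p = 0.0067), and the second call ended without CD24-CD172a+ replicate 2 (0.56, adjusted p = 0.0513). Of 7 fixed erythroid markers, 4 were measured and none was called in any comparison. Their summed intensity was 72.9 and 77.7 in CD24+CD172a+ cells, 75.2 and 69.0 in CD24-CD172a+ cells, and 65.4 and 71.4 in cDC1.

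**Figure D4:**
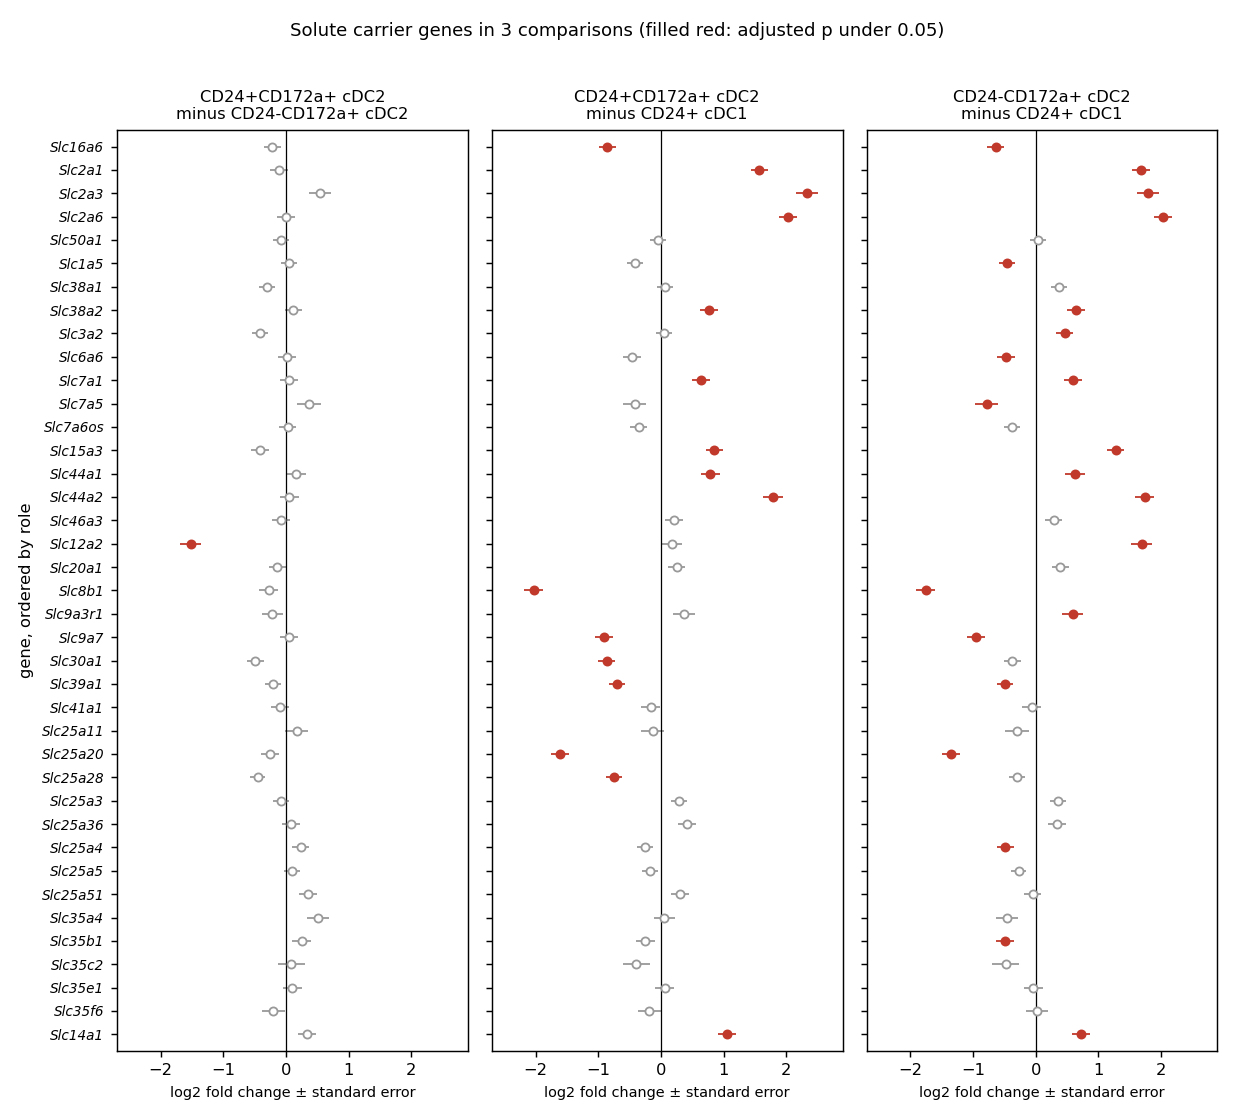
Log2 fold change (horizontal axis, bars give the standard error) of each of 39 solute carrier genes (vertical axis, ordered by role) in the 3 comparisons; filled red points have an adjusted p under 0.05 in limma. 1 gene, Slc12a2, is filled in the left panel, against 16 and 22 in the panels against cDC1.

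How well a call held differed between the comparisons with cDC1. Slc2a1, Slc2a3, Slc2a6, Slc44a2, Slc14a1, Slc8b1, Slc25a20, Slc9a7 and Slc7a5 passed the level rule with a mean below 7 in a compared population. As said above, genes can pass the rule through the population where they are high. A call of these genes that held therefore supports nothing about solute carriers as a class. Of the 16 calls in CD24+CD172a+ cDC2, 14 held in all 4 fits that leave out a compared array, and those of Slc44a1 and Slc7a1 did not. Of the 22 calls in CD24-CD172a+ cDC2, 9 held in all 4 such fits (Slc2a1, Slc2a3, Slc2a6, Slc44a2, Slc15a3, Slc12a2, Slc8b1, Slc9a7 and Slc25a20). Another 7 held in none of the 4: Slc1a5, Slc3a2, Slc6a6, Slc7a1, Slc25a4, Slc35b1 and Slc39a1, each with a fold change under 0.6 on the log2 scale.

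Against cDC1, the shares called among the 325 solute carrier genes below the level threshold lay near those over all genes, and this difference was not tested. In CD24+CD172a+ cDC2 against cDC1, 20 rose (6.15%) and 26 fell (8%), and in CD24-CD172a+ cDC2 against cDC1, 23 rose (7.08%) and 24 fell (7.38%). Between the cDC2 populations, none rose and 4 fell (1.23%), with 9 higher and 24 lower at an unadjusted p under 0.05 in limma. Of all 19938 genes, 0.808% rose and 0.652% fell there, with 1573 higher and 1226 lower at that unadjusted p. Of 43 measured carriers that go by other symbols, 5 rose and 7 fell in CD24+CD172a+ cDC2 against cDC1, 4 rose and 9 fell in CD24-CD172a+ cDC2 against cDC1, and 1 fell between the cDC2 populations, with median fold changes of -0.11 and -0.085 against cDC1 and the same shares of all genes as above. Slco3a1, an organic anion transporter gene, read 5.71 and 5.78 in CD24+CD172a+ cells, 5.69 and 5.98 in CD24-CD172a+ cells, and 9.41 and 9.19 in cDC1. It fell by 3.56 ± 0.15 in the first and fell by 3.47 ± 0.15 in the second (adjusted p = 8.41e-08 and 8.84e-08). Flvcr1, a choline and heme transporter gene, read 9.66 and 9.90 in CD24+CD172a+ cells, 9.98 and 10.04 in CD24-CD172a+ cells, and 6.89 and 7.66 in cDC1. It rose by 2.503 ± 0.22 and 2.74 ± 0.22 (adjusted p = 1.88e-05 and 9.59e-06). Mfsd2a, which encodes a carrier of lysophospholipids, read 5.63 and 5.45 in CD24+CD172a+ cells and 6.40 and 6.36 in CD24-CD172a+ cells, a fall of 0.84 ± 0.13 (adjusted p = 0.0151). Of 19 measured partners of carriers, such as Ragulator and the Rag GTPases, which bring mTORC1 to lysosomes, 3 rose and 6 fell in CD24+CD172a+ cDC2 against cDC1, and 3 rose and 7 fell in CD24-CD172a+ cDC2 against cDC1, beside 7.11% and 6.52%, and 6.83% and 8.91%, of all genes that rose and fell. Among them, Rraga fell by 0.84 ± 0.13 in CD24+CD172a+ cDC2 against cDC1 (adjusted p = 0.00109 in limma). Lamtor2 fell by 1.06 ± 0.14 in CD24-CD172a+ cDC2 against cDC1 (adjusted p = 0.000516). The median fold change of the 19 partners was -0.21 and -0.33. Between the cDC2 populations 1 rose, Atp1b1, which encodes a subunit of the sodium pump (0.88 ± 0.13, adjusted p = 0.0100).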

How the data were processed

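RNA of 6 samples was hybridised to Affymetrix arrays. Per the submitters' processing notes, Affymetrix Expression Console ran RMA, which corrects background, quantile-normalises and summarises probe sets; versions and a genome build are not given in the sources used here. Values deposited by the authors were taken, from their range, as linear RMA intensities, and log2 was computed from them. Raw scans and present calls were not analysed here. Of 28853 probe sets, 21789 had 1 gene symbol (1621 had several, 5443 none); for genes with several (999), the probe set with the highest mean was kept, which left 19938 genes. The table of symbols is GEO's platform annotation, and 21698 gene IDs matched the GRCm38.p6 table, which changed 0 symbols. Groups came from the sample titles. limma 3.58.1 in R 4.3.3 fitted all 6 arrays together (3 residual and 7.31 prior degrees of freedom); the number of arrays limits the precision.

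The genes and lists were chosen with earlier results of these data known. The naming rule took the 10 largest called changes each way per comparison, up to 4 called genes per role class, 21 preset genes where they are members, the 3 probe sets on each side of the threshold, and up to 3 called genes per comparison from each other list. It named 28 of the 39 genes, and the other 11 were named to account for all. Of the genes that it took from the other lists, only some are named in the text. Motifs and the 4 printed promoters were picked after the values were seen. Cell type lists of macrophages, plasmacytoid, B, T and NK cells, neutrophils and erythroid cells were counted as well. Of the B, T and NK cell and neutrophil lists, none of 4, 3 and 5, and 2 of 6, were called between the cDC2 populations. There, 1.46% of all genes were called. The test was also tested on simulated data. Alternatives varied the threshold, filter, probe set rule, scaling, variance model, samples and replicate block. Python 3.11.15 with matplotlib 3.10.9 made the plots.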

Additional observations from a re-analysis of the deposited data

How the results depend on the processing

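Over 6 counts of called solute carrier genes and 18 alternatives each, 94 of 108 counts stayed within 1.5 times. The count lower in CD24+CD172a+ than in CD24-CD172a+ cDC2 was 1 and became 2 with a threshold of 6.5 and with an intensity trend and robust variance, and lay between 0 and 1 with 1 array left out. The count lower in CD24+CD172a+ cDC2 than in cDC1 was 7 and became 11 with a threshold of 6.5 and 4 with 7.5. The count lower in CD24-CD172a+ cDC2 than in cDC1 was 10 and became 6 with a threshold of 7.5, 6 after a second quantile normalisation, 5 after cyclic loess, and 3 to 9 with 1 array left out (3 and 6 without cDC1 replicate 1 or 2, 5 and 4 without CD24-CD172a+ replicate 1 or 2). The count higher there was 12, and 6 to 11 with 1 array left out (7 without cDC1 replicate 1, 6 without CD24-CD172a+ replicate 2). The other 2 counts moved by less than 1.5 times, at 0 in every setting and at 7 to 12. The 39 calls of single genes were each checked under 10 other alternatives and with each of 6 arrays left out: the call ended in 12 of 390 checks of the first kind and in 49 of 234 of the second, and changed sign in none. Among the 28 genes named by the rule, uncalled differences became calls in 11 checks (3 each for Slc20a1, Slc1a5 and Slc6a6, 1 each for Slc3a2 and Slc25a5). The cause was not tested, beyond the loss of an array. Outside these 28 genes, differences of Slc35a4 and Slc35c2 against cDC1 also became calls with a compared array left out. With the replicate number as a block (replicate block), the counts were 0 and 1, 9 and 7, and 12 and 10, as without it, and no call ended. Same-numbered arrays deviated together only weakly (correlations of 0.084, 0.084 and 0.024), so the numbers were not taken as pairs.

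Some uncalled differences near 0 changed sign. Values are given for the 28 genes named by the rule; of the other 11, 7 changed sign between the cDC2 populations with a compared array left out, Slc35c2 most widely (-0.28 to 0.45), 5 did in CD24+CD172a+ cDC2 against cDC1, and 3 did in CD24-CD172a+ cDC2 against cDC1, all uncalled. Between the cDC2 populations, cyclic loess gave -0.027 for Slc1a5, -0.036 for Slc44a2, -0.061 for Slc6a6, -0.052 for Slc7a1 and -0.057 for Slc9a7, a second quantile normalisation gave -0.015 for Slc6a6, -0.011 for Slc7a1 and -0.051 for Slc9a7, and median centring gave 0.010 for Slc2a6. With 1 array left out the ranges there were -0.26 to 0.042 for Slc2a1, -0.14 to 0.14 for Slc2a6, -0.095 to 0.20 for Slc44a2, -0.18 to 0.014 for Slc46a3, -0.13 to 0.16 for Slc6a6, -0.12 to 0.21 for Slc7a1 and -0.0026 to 0.099 for Slc9a7. Against cDC1 they were -0.048 to 0.39 for Slc12a2 in CD24+CD172a+ cDC2, -0.019 to 0.11 for Slc3a2 in CD24+CD172a+ cDC2 and -0.011 to 0.092 for Slc50a1 in CD24-CD172a+ cDC2. The number of arrays limits all of these, and without detection calls the signal over background was not examined.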
